A study of Mus musculus with 2 samples.

Results

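The small leucine-rich proteoglycans examined here were the 8 genes Dcn, Bgn, Aspn, Fmod, Lum, Prelp, Kera and Ogn. They were chosen by name as members of 1 gene family, with earlier results of these data known. The authors had named Fmod and Ogn, with Tnmd, among the markers of a cluster in these data. Tests of Fmod and Ogn in wells with Tnmd are therefore not independent of that finding. The family made up 8 of the 17938 genes listed for either of 2 plates of single αSMA-labeled periosteal cells. All 8 were listed on both plates and all 8 had UMIs in the wells kept for analysis. In αSMACreER/Ai9 mice, tamoxifen activates Cre in cells that express αSMA (Acta2) and switches on the red Tomato reporter in those cells and their descendants, so that the sorted cells are limited to the αSMA lineage. Tomato+, DAPI-negative cells of female mice were sorted from the periosteum, 1 cell per well, after 2 doses of tamoxifen at 75 mg/kg given 24 h apart. The cells chased for 2 days came from aSMACreER/Ai9/Col2.3GFP mice aged 10.3 weeks, and those called 6 weeks came from the same strain, chased for 43 days and aged 14.4 weeks. The cells called 13 weeks were chased for 96 days and came from aSMACreER/Ai9/R26-M2rtTA/TetOP-H2B-GFP mice aged 20.1 weeks, which had received doxycycline for 5 weeks. Each time point was 1 pool of 2 to 3 mice, and levels could not be tested between time points. The 2-day and 13-week pools shared a plate, the 6-week pool had its own, and the strain, the age, the doxycycline and the length of the chase cannot be told apart in the 13-week pool.

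Small leucine-rich proteoglycans are secreted proteins with a core of leucine-rich repeats, and many carry chondroitin, dermatan or keratan sulfate chains. They bind fibrillar collagens and govern how collagen fibrils assemble and how thick they grow, and several also bind growth factors such as TGFβ. Tendon, ligament, cornea and periosteum are known for high levels of these proteins, and the genes are commonly divided into classes. Dcn (decorin), Bgn (biglycan) and Aspn (asporin, which lacks glycosaminoglycan chains) belong to class I. Fmod (fibromodulin), Lum (lumican), Prelp (a basement membrane and collagen linker) and Kera (keratocan) belong to class II, and Ogn (osteoglycin) belongs to class III.

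In GRCm38 with the annotation of GENCODE release M21, 7 of the 8 genes shared a chromosome region with another member. Dcn (chr10:97479609-97518143), Lum (chr10:97565128-97572703) and Kera (chr10:97606879-97613692) followed each other on the + strand, with 46984 bases between Dcn and Lum and 34175 between Lum and Kera. Prelp (chr1:133910304-133921414, − strand) and Fmod (chr1:134037254-134048277, + strand) were 115839 bases apart, and Aspn (chr13:49544443-49567565) and Ogn (chr13:49608046-49624501) were 40480 bases apart, with the related gene Omd between them. Bgn stood alone on the X chromosome (chrX:73483602-73495933). Aspn and Ogn lie inside Cenpp on the opposite strand, and the use of strand in the counting is not given in the sources used here, but Cenpp held only 2 UMIs in the kept wells beside 393 for Aspn and 417 for Ogn.

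RefSeq start sites of GRCm38.p6 gave the 250 bases upstream for 6 of the 8 genes, and Dcn and Lum were not matched. The stretches of 4 members are shown because they stand for the groups met below: Fmod and Ogn were higher in fibrous wells than in fibroblast-gene wells, whereas Bgn and Aspn did not pass that test. Each is written 5′ to 3′ along the gene, and capitals mark matches on either strand to TATAAA, the consensus of the TATA box, and to CANNTG, the E box that basic helix-loop-helix factors such as scleraxis (Scx) bind.
Fmod, chr1:134037004-134037253 (+ strand): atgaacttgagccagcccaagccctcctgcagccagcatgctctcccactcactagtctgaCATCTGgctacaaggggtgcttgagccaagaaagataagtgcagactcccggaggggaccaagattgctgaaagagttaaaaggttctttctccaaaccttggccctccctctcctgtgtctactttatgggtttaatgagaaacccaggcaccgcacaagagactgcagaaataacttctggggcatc
Ogn, chr13:49607765-49608014 (+ strand): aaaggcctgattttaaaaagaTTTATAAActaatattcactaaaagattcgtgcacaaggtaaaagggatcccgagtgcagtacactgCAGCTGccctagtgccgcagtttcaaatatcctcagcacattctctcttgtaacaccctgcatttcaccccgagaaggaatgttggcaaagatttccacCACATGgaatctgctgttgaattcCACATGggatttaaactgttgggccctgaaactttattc
Bgn, chrX:73483351-73483600 (+ strand): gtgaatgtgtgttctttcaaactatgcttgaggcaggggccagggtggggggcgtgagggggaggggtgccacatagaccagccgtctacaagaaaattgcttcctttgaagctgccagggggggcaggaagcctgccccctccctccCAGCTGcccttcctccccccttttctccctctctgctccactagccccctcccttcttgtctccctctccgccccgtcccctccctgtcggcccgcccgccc
Aspn, chr13:49544193-49544442 (+ strand): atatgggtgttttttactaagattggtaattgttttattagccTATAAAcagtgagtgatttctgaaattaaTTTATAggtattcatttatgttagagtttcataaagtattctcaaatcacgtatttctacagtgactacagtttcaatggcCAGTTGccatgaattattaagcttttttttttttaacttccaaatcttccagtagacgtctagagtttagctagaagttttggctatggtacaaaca
TATAAA was found in 12.4% and CANNTG in 66.2% of 32851 mouse promoter windows of this length. Of the 6 genes, Ogn and Aspn held 2 TATAAA matches each, those of Ogn overlapping, and Fmod, Bgn, Prelp and Kera held none. CANNTG was found once in Fmod, Bgn and Aspn, 3 times in Ogn and not in Prelp or Kera. A match in letters is not a bound site, and these data hold no measurement of binding.

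The plates held 600 wells assigned to a time point, and the 503 with at least 200 genes were kept: 181 at 2 days, 189 at 6 weeks and 133 at 13 weeks, with 171209, 156763 and 117824 UMIs. All 216 well barcodes of the 6-week plate are among the 384 of the mixed plate. No wells were removed as doublets and no doublet caller was run. Wells were grouped by the fibrous markers Thbs4 and Tnmd, the perivascular marker Rgs5 and the fibroblast genes Gsn, Ly6a and Pdgfra. Fibrous wells (226) had at least 1 UMI of Thbs4 or Tnmd and none of Rgs5. Rgs5 wells (83) had Rgs5 and neither fibrous marker, and 35 wells had both. Fibroblast-gene wells (81) had none of these 3 markers and at least 2 UMIs of Gsn, Ly6a and Pdgfra together, and 78 wells remained. The median well held 741 UMIs in the fibrous, 903 in the fibroblast-gene and 547 in the Rgs5 group. Marker lists are given without the genes that formed the groups, which fix part of their level, and without Kera. The 5 remaining tendon or fibrous markers summed to 26.5 to 50.5 UMIs per 10000 in fibrous wells over the 3 pools, 3.65 to 7.61 in fibroblast-gene wells and 1.89 to 3.45 in Rgs5 wells. The 5 remaining fibroblast markers summed to 105, 123 and 89.7 per 10000 at 2 days, 6 weeks and 13 weeks in fibroblast-gene wells, against 98.6, 34.2 and 27.9 in fibrous wells, so that the groups lay close at 2 days. Skeletal muscle genes stood at 76.7 per 10000 in the 13-week fibroblast-gene wells and at 1.78 and 2.38 in those of 2 days and 6 weeks. The 8 remaining perivascular markers summed to 30.8 to 49.98 in Rgs5 wells and to at most 11.3 in the fibrous and 8.09 in the fibroblast-gene wells. Osteoblast genes stood at 31.4 to 38.6 in these 3 groups at 6 weeks and at 0.522 to 6.23 in the other pools, and red blood cell genes reached 174.5 in the 6-week Rgs5 wells and 30.8 in the 2-day fibrous wells. Satellite cell genes ran from 6.23 to 19.7 in fibrous wells, where Chodl alone stood at 11.6 over all pools and the other 4 genes at 0.677 or less each, and the immune, chondrocyte and Schwann lists were at most 6.26, 1.61 and 5.17 in these groups. The part of these cell types in the results was not tested, beyond leaving out wells with satellite or muscle genes.

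Together the 8 genes gave 6588 UMIs, and 94.4% of wells held at least 1 of them. Dcn was by far the most abundant, with 2971 UMIs in 416 wells, and Fmod followed with 1338 UMIs in 257 wells. Bgn gave 609 UMIs, Prelp 482, Ogn 417, Aspn 393, Lum 231 and Kera 147. Kera was seen in 57 wells, 11.3% of all, the fewest of the family. The counts come from tags at the 3′ ends of transcripts, 1 UMI per captured molecule, and levels were therefore not divided by gene length. Levels below are UMIs of the gene per 10000 UMIs of the pooled wells, with exact Poisson intervals at 95%, which cover counting error only.

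Fmod and Kera had the largest fibrous-to-fibroblast-gene ratios of pooled levels, 9.57 and 9.49. Fmod stood at 59.8 per 10000 at 2 days, 63.3 at 6 weeks and 43.4 at 13 weeks in fibrous wells, and at 2.49, 8.56 and 5.22 in fibroblast-gene wells. Every fibrous value was above every fibroblast-gene value, by 7.39-fold to 24.0-fold within a pool. In Rgs5 wells Fmod stood at 2.87, 3.51 and 2.36, and the highest count in any such well was 2 UMIs, against 78 in a fibrous well. Kera, a keratan sulfate proteoglycan best known from the cornea, stood at 6.98, 5.92 and 5.84 per 10000 in fibrous wells and at 0.356, 0.476 and 1.57 in fibroblast-gene wells. Those last values rest on 1, 2 and 3 UMIs. No Kera UMI was found among the Rgs5 wells. Against a floor of 3 counts over all Rgs5 wells, Kera was at least 13.7-fold higher in fibrous wells. Of all UMIs in kept wells 46.4% lay in fibrous wells, but 87.9% of Fmod UMIs and 89.8% of Kera UMIs did, and the 10 wells with the most UMIs were all fibrous for both genes.

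Ogn and Prelp were also higher in fibrous wells but were less restricted to them. Ogn, which binds collagen, stood at 12.8 per 10000 at 2 days, 18.9 at 6 weeks and 18.5 at 13 weeks in fibrous wells, and at 7.83, 3.57 and 4.17 in fibroblast-gene wells. The values of the groups did not overlap, but at 2 days their intervals did (10.6 to 15.3 against 4.91 to 11.9). Prelp stood at 13.1, 26.4 and 13.4 in fibrous wells and at 8.90, 5.47 and 9.39 in fibroblast-gene wells. The gap in Prelp was 4.82-fold at 6 weeks, on the plate of its own, and 1.47-fold and 1.43-fold at 2 days and 13 weeks. At 6 weeks 1 fibrous well held 35 of the 165 Prelp UMIs of its group. In Rgs5 wells Prelp stood at 2.34 to 3.45 and Ogn at 1.42 to 2.30 per 10000.

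The class I members Dcn, Bgn and Aspn were found in fibrous and fibroblast-gene wells at levels of the same order. Dcn, which coats collagen fibrils and binds TGFβ, stood at 99.6, 107 and 78.9 per 10000 at 2 days, 6 weeks and 13 weeks in fibrous wells. In fibroblast-gene wells it stood at 64.1, 91.6 and 52.7, and in Rgs5 wells at 21.8, 14.0 and 6.13. The fibrous and fibroblast-gene values overlapped across pools, and all 6 lay above the Rgs5 values. Bgn, the closest relative of Dcn, stood at 18.5, 19.8 and 15.2 in fibrous wells, 12.1, 20.0 and 8.35 in fibroblast-gene wells and 4.02, 7.01 and 1.42 in Rgs5 wells. At 6 weeks the fibrous and fibroblast-gene wells were level in Bgn. Aspn, which competes with Dcn for collagen, stood at 12.6, 13.1 and 9.54 in fibrous wells and at 6.77, 11.7 and 5.22 in fibroblast-gene wells. In Rgs5 wells Aspn stood at 4.60, 3.90 and 4.25 per 10000, and its fibroblast-gene intervals at 2 days (4.07 to 10.6) and 13 weeks (2.5 to 9.60) held the Rgs5 values.

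Lum was the 1 member whose level over all pools was not higher in fibrous than in fibroblast-gene wells (5.03 against 7.95 per 10000). This keratan sulfate proteoglycan of collagen-rich tissue stood at 7.31, 3.68 and 2.53 per 10000 at 2 days, 6 weeks and 13 weeks in fibrous wells, and at 6.41, 9.99 and 5.74 in fibroblast-gene wells. The order of the groups differed between pools, with fibrous wells above at 2 days and below at 6 and 13 weeks. At 6 weeks 1 fibroblast-gene well held 16 of the 42 Lum UMIs of its group. Rgs5 wells stood at 2.87, 3.90 and 1.42 per 10000. Fibroblast-gene wells held 20.03% of all UMIs of the kept wells and 30.7% of the Lum UMIs.

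**Figure D1:**
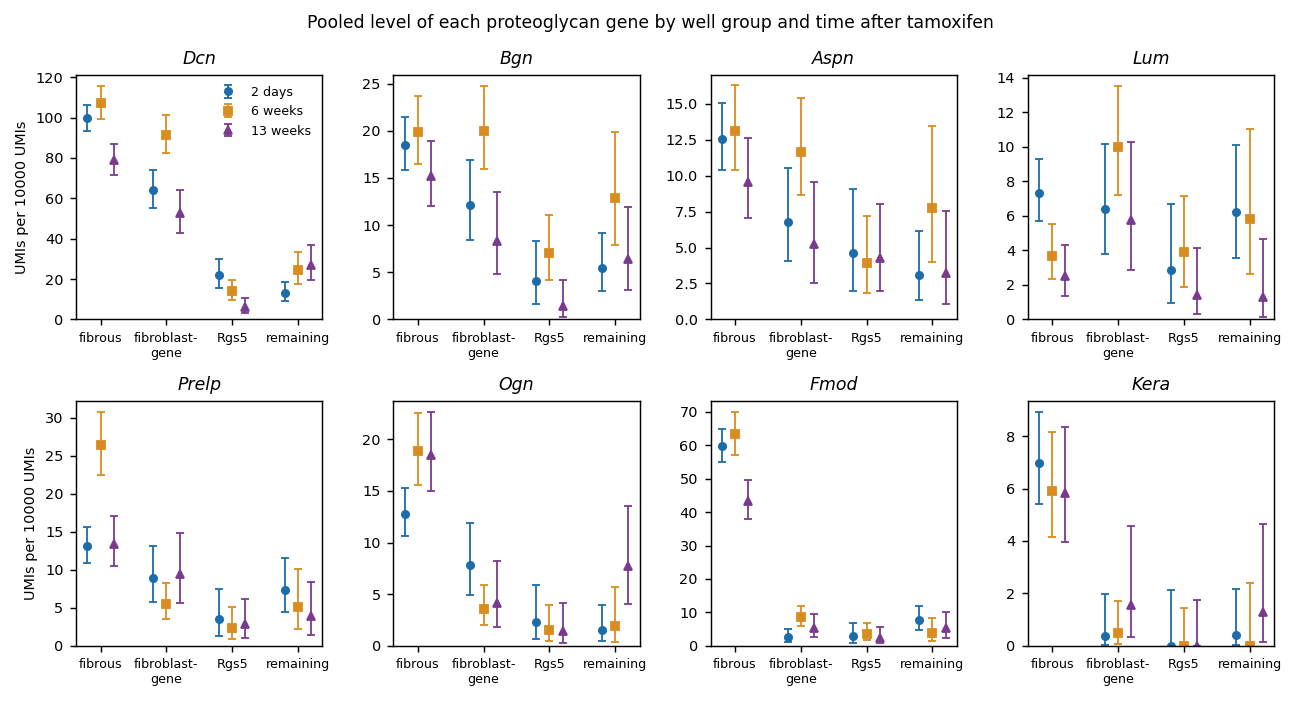
Level of each of the 8 genes in UMIs per 10000 UMIs (linear vertical axis from 0, scaled for each gene) in fibrous, fibroblast-gene, Rgs5 and remaining wells, with 1 point per pool (circle, 2 days; square, 6 weeks; triangle, 13 weeks) and exact Poisson 95% intervals. Fmod runs from 43.4 to 63.3 in fibrous wells and from 2.36 to 8.56 in the fibroblast-gene and Rgs5 wells, whereas Dcn is at 52.7 or more in both the fibrous and the fibroblast-gene wells of every pool.

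To ask which members differ between fibrous and other wells, UMIs were summed per pool and well group, and the sums were compared over the 3 pools with edgeR's quasi-likelihood test, with the pool as a block and Benjamini-Hochberg adjustment over all genes tested. Only the 3 pools serve as replicates, and they also differ in plate, age and time. With the pool as a block, the p-values measure how the difference between well groups varied over the pools. That spread was shared across genes, with 2 residual degrees of freedom. A small p is therefore no measure of 1 gene's own spread over 3 pools. In wells with a Thbs4 or Tnmd UMI (261) against wells without (242), 5 of the 7 members other than Kera were higher, where 5.4% of all 1129 genes tested were (1.68% were lower). Those 7 passed the filter on low counts in both well groups. The shares of all genes tested, here and below, also include genes that passed it through 1 group only. Kera passed it only through the group where it was high, with 138 UMIs against 9, so that it had to differ, and its log2 ratio of 3.77 ± 0.44 (SE) is a description with no test. Fmod rose by a log2 ratio of 3.47 ± 0.26 (SE; edgeR adjusted p = 1.3e-05, 3 pools). Ogn rose by 2.14 ± 0.30 (edgeR adjusted p = 0.00091), Prelp by 1.54 ± 0.33 (0.013), Dcn by 1.30 ± 0.23 (0.0042) and Bgn by 1.06 ± 0.29 (0.048). Aspn missed the threshold, with 1.01 ± 0.28 (edgeR adjusted p = 0.051), but was called higher in 7 of 16 alternatives, limma-voom (adjusted p = 0.022) among them. Lum stood at -0.14 ± 0.32 (edgeR adjusted p = 0.88) and was called in 0 of the 16. No member was lower by edgeR, DESeq2 or limma-voom, nor at an unadjusted p under 0.05 (0 members by each tool). Without the 13-week pool Dcn (edgeR adjusted p = 0.13), Bgn (0.41) and Prelp (0.12) lost their calls. The Bgn call was also lost with DESeq2 (adjusted p = 0.061), and only 8 of 16 alternatives kept it.

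Fibrous wells were also compared with fibroblast-gene wells. Of the 7 members other than Kera, 3 were higher in fibrous wells, where 8.89% of the 641 genes tested were (3.28% were lower). Fmod was higher by a log2 ratio of 3.58 ± 0.32 (SE; edgeR adjusted p = 3.1e-25, 3 pools). Kera, with 132 UMIs against 6, again passed the filter only through its high group, and its log2 ratio of 3.33 ± 0.50 (SE) is a description. Ogn was higher by 1.89 ± 0.31 (edgeR adjusted p = 4.7e-08) and Prelp by 1.36 ± 0.29 (6.3e-05). Dcn at 0.69 ± 0.29 (edgeR adjusted p = 0.11), Bgn at 0.63 ± 0.27 (0.12), Aspn at 0.78 ± 0.30 (0.067) and Lum at -0.56 ± 0.34 (0.36) did not pass, which does not show that they were equal. Differences between members were not tested. No member was lower by edgeR, DESeq2 or limma-voom, and 0 were lower at an unadjusted p under 0.05. Of the 7 members other than Kera, 6 were higher at that unadjusted threshold by edgeR, 6 by limma-voom and 4 by DESeq2. Dcn, Bgn and Aspn were among the 6 by edgeR, so that only the adjustment over all genes tested kept them from passing. With limma-voom Dcn (adjusted p = 0.012) and Aspn (0.042) were also called higher. Of 15 alternatives, Dcn was called in 3, Aspn in 4 and Bgn in 1. With DESeq2 Prelp was not called (adjusted p = 0.084), and with read counts neither Prelp nor Ogn was (0.11 for both). Without the 13-week pool Prelp (edgeR adjusted p = 0.089) and Ogn (0.073) were not called, and without the 6-week pool Prelp was not (0.12) while Bgn (0.025) and Aspn (0.023) were. Fmod was called in each of the 15 alternatives.

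Rgs5 wells lay at the other end of the 3 marker groups over all pools. The 78 remaining wells were also low, with Dcn at 20.1 per 10000 against 13.5 in Rgs5 wells, and Aspn at 4.41 against 4.20. At 2 days Dcn (13.2 against 21.8) and Aspn (3.11 against 4.60) were lower in the remaining wells than in Rgs5 wells. Against wells without Rgs5 (385), the 118 wells with an Rgs5 UMI had 6 of the 7 members other than Kera lower, where 10.9% of 921 genes tested were (11.9% were higher). The log2 differences ran from -2.31 ± 0.29 for Ogn (SE; edgeR adjusted p = 2.2e-08) to -1.01 ± 0.27 for Aspn (0.0036). Kera, with 6 UMIs against 141, passed the filter only through wells without Rgs5, and its log2 difference of -2.5 ± 0.54 (SE) is a description. Lum, at -0.71 ± 0.34, was not called (edgeR adjusted p = 0.14), though it was called lower in 2 of 14 alternatives, without a filter (0.028) and with at least 2 Rgs5 UMIs (0.011). No member was higher (0 at an unadjusted p under 0.05 by edgeR, DESeq2 or limma-voom). The Aspn call was lost without the 6-week pool (edgeR adjusted p = 0.21), with DESeq2 (0.14) and with read counts (0.13), and was kept in 11 of 14 alternatives. The Bgn call was lost with read counts (edgeR adjusted p = 0.11) and kept in the other 13. Wells without Rgs5 are mostly fibrous, and a direct comparison of Rgs5 wells with fibroblast-gene wells was therefore added after the data had been seen. It had 302 genes tested, of which 13.9% were lower and 15.6% higher in Rgs5 wells. Dcn was the 1 member that passed the filter in both groups, and it was lower by a log2 difference of -2.17 ± 0.27 (SE; edgeR adjusted p = 3.0e-05). Bgn (-1.50 ± 0.33), Lum (-1.21 ± 0.40), Prelp (-1.20 ± 0.40) and Aspn (-0.70 ± 0.39) passed it only through fibroblast-gene wells, where they were higher, and their log2 differences are descriptions. Fmod, Kera and Ogn did not pass the filter on low counts in that comparison. Endothelial genes summed to 24.7 to 50.01 per 10000 in Rgs5 wells over the pools, to 0.356 to 9.91 in fibroblast-gene wells and to 0.537 to 2.40 in fibrous wells, and their part in these differences was not tested.

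**Figure D2:**
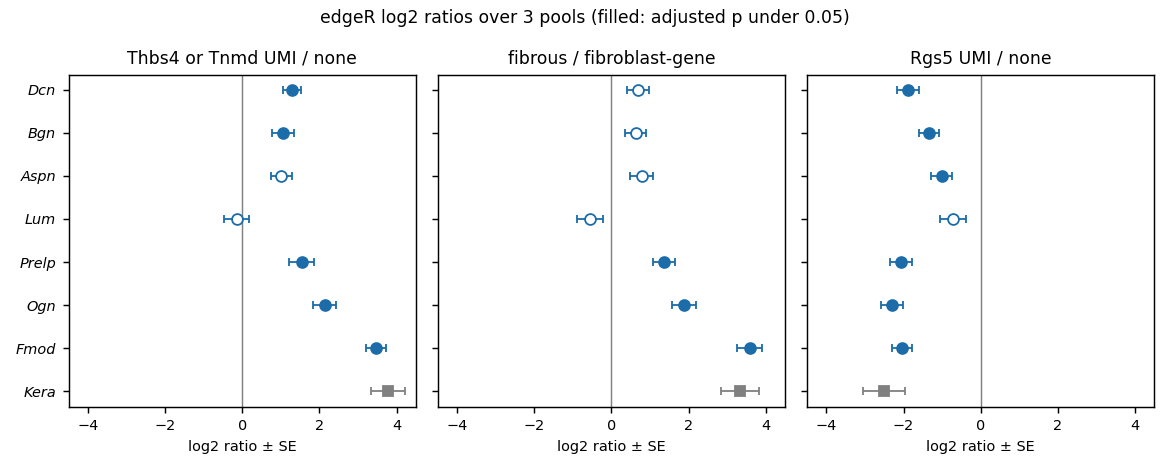
Fitted log2 ratio with its standard error (horizontal axis) for each of the 8 genes in 3 comparisons over 3 pools, with filled circles for an edgeR adjusted p under 0.05, open circles otherwise and grey squares for Kera, which passed the filter through 1 group only. Fmod and Kera lie above 3 in both comparisons that start from fibrous markers, Lum lies at -0.14 and -0.56 in them, and all 8 genes lie below 0 in wells with an Rgs5 UMI.

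Levels were also set against the number of marker UMIs in a well. Among the 385 wells without Rgs5, 159 had 0 UMIs of Thbs4 and Tnmd, 60 had 1, 24 had 2, 29 had 3 to 5 and 113 had 6 or more. Fmod stood at 5.96 per 10000 in wells with 0, 10.9 with 1, 26.02 with 2, 71.8 with 3 to 5 and 84.2 with 6 or more. By pool, Fmod with 1 marker UMI stood at 11.1, 5.39 and 15.9 per 10000 at 2 days, 6 weeks and 13 weeks, against 5.02, 7.30 and 5.19 with 0, so that it was lower with 1 in the 6-week pool. Kera stood at 0.616 (0.282 to 1.17) with 0, 0.165 (0.00419 to 0.921) with 1, 5.52 (2.38 to 10.9) with 3 to 5 and 10.8 with 6 or more. The 24 wells with 2 held 0 Kera UMIs, which allows up to 1.66 by the limit of 3 counts. Only 9, 1 and 0 Kera UMIs lay behind the values at 0, 1 and 2 marker UMIs, and their Poisson intervals overlapped. No difference among these bins can be read from them. Ogn went from 4.38 with 0 to 21.7 with 6 or more, and Prelp from 6.78 to 22.0. Dcn stood at 53.4 with 0, 82.8 with 1, 114 with 3 to 5 and 103 with 6 or more, and in the 6-week pool it was lower with 1 (60.7) than with 0 (73.5). Bgn went from 12.2 with 0 to 20.0 with 6 or more. Aspn stood at 18.6 with 3 to 5, a value that rests on 27 UMIs, and at 10.6 with 6 or more. Its highest bin differed between pools, with 19.9 at 1 marker UMI at 2 days, 31.3 at 3 to 5 at 6 weeks and 20.6 at 2 at 13 weeks. Lum went the other way, from 6.71 with 0 and 11.2 with 1 to 6.09 with 2, 4.14 with 3 to 5 and 1.67 (1.00 to 2.61) with 6 or more. By pool, Lum with 1 marker UMI stood at 17.3, 4.05 and 5.97 per 10000 at 2 days, 6 weeks and 13 weeks. In the 6-week pool that was below its level with 0 (8.86). With 6 or more marker UMIs Lum stood at 1.29, 3.14 and 0.342 per 10000 in the pools of 2 days, 6 weeks and 13 weeks, against 6.32, 8.86 and 3.75 with 0. In every pool Lum was lower in the wells with 6 or more. The median UMIs per well were 803 with 0 marker UMIs and 846 with 6 or more, but 407 with 3 to 5. These bins were not tested.

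**Figure D3:**
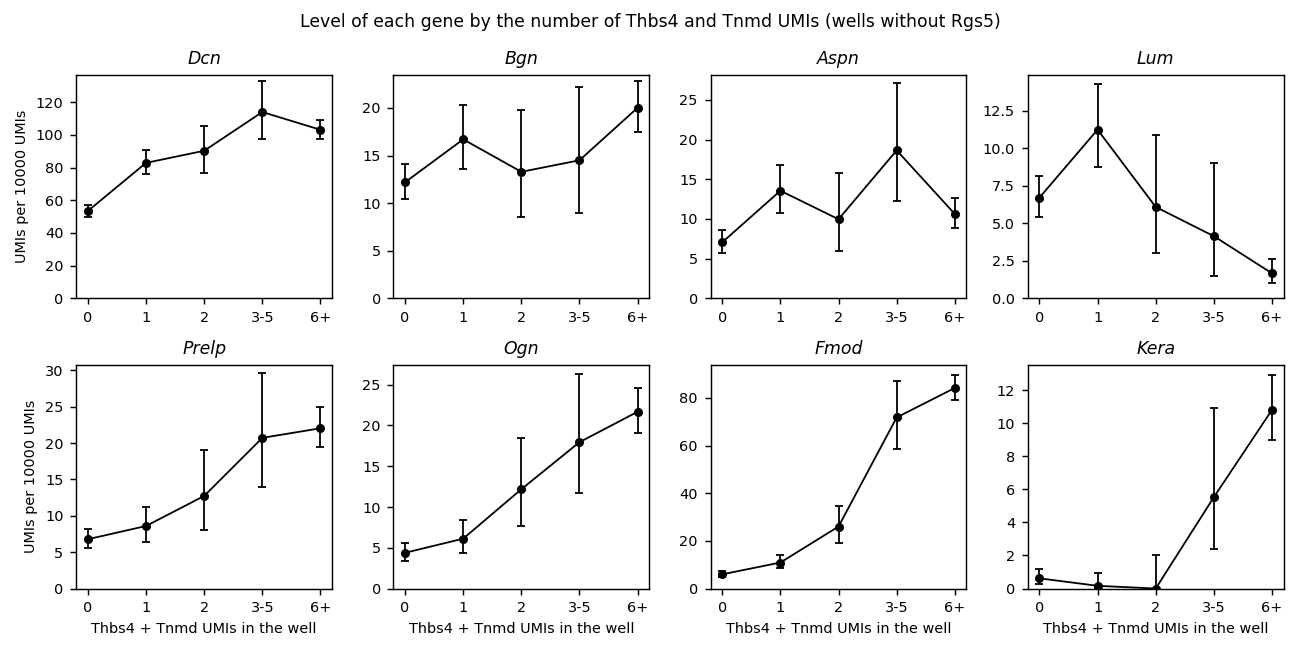
Pooled level of each gene in UMIs per 10000 UMIs (linear axis from 0, scaled for each gene) against the number of Thbs4 and Tnmd UMIs in the well, for wells without Rgs5, with exact Poisson 95% intervals. Fmod climbs from 5.96 to 84.2 and Kera from 0.616 to 10.8, whereas Lum goes from 6.71 to 1.67.

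Shares of wells with a UMI were compared at a fixed depth. The well groups were still those set on all UMIs of a well, so membership of a group was not at a fixed depth. With every well thinned to 300 UMIs, Dcn was seen in 80.9% of fibrous wells and 76.9% of fibroblast-gene wells (exact binomial 95% intervals 75.1 to 85.9 and 66.0 to 85.7), and in 33.3% of Rgs5 wells. Without thinning these shares were 94.7%, 92.6% and 54.2%. Fmod was seen in 56.8% of fibrous wells, 11.5% of fibroblast-gene wells and 11.5% of Rgs5 wells at 300 UMIs, and in 78.3%, 29.6% and 19.3% without thinning. The pooled Fmod level was 5.94 per 10000 in fibroblast-gene and 2.96 in Rgs5 wells, with at most 13 and 2 UMIs in a well, and the part of free RNA in these shares was not tested. Kera was seen in 12.7% of fibrous wells, 3.85% of fibroblast-gene wells and 0 of 78 Rgs5 wells at 300 UMIs. Without thinning it was seen in 19.0%, 7.41% and 0 of 83 wells, which allows a share of up to 3.61% by the limit of 3 counts. That limits wells with a Kera UMI, not cells expressing Kera. Lum was seen in 12.7%, 21.8% and 11.5%, and its intervals in fibrous (8.63 to 17.9) and fibroblast-gene wells (13.2 to 32.6) overlapped. Thinning left out 6 fibrous, 3 fibroblast-gene and 5 Rgs5 wells. On average 2.9 of the 8 genes were detected in a fibrous well at 300 UMIs, 1.87 in a fibroblast-gene well and 0.897 in an Rgs5 well (4.39, 3.37 and 1.72 without thinning).

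**Figure D4:**
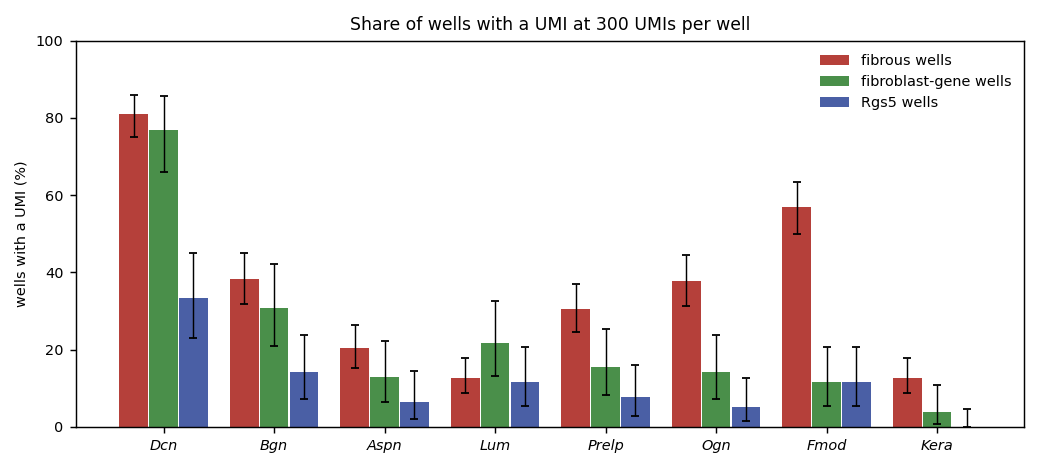
Share of wells with at least 1 UMI of each gene (percent, axis from 0 to 100) after thinning each well to 300 UMIs, in 220 fibrous, 78 fibroblast-gene and 78 Rgs5 wells, with exact binomial 95% intervals. Dcn bars are 80.9% and 76.9% in fibrous and fibroblast-gene wells, Fmod bars 56.8% and 11.5%, and Lum is the gene with its highest bar, 21.8%, in fibroblast-gene wells.

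Within a group the make-up of the family also differed. Dcn gave 42.4% of the members' UMIs in fibrous wells and 59.5% in fibroblast-gene wells, Fmod 24.9% and 4.74%, and Lum 2.20% and 6.34%. Among fibrous wells, 40 of the 43 with Kera also held Fmod (93.0%, against 78.3% of all fibrous wells), and 33 held Ogn (76.7% against 59.3%). Lum was found in 6 of those 43 wells (14.0%), against 23.5% of fibrous wells. Of the 53 fibrous wells with Lum, 43 also held Bgn (81.1%, against 66.4%) and 29 held Aspn (54.7%, against 38.9%). Deeper wells hold more of every gene, and these shares were not tested.

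Over the 12 sums of 3 pools and 4 well groups, the log2 levels of Fmod and Kera had a Pearson correlation of 0.92, Kera and Ogn 0.90, and Dcn and Bgn 0.90. Lum had 0.61 to Bgn, 0.48 to Dcn, 0.46 to Aspn, 0.32 to Prelp, 0.15 to Fmod, 0.04 to Kera and -0.02 to Ogn. Among 584 genes with at least 100 UMIs outside the family, the gene most like Fmod was Cilp2 (r = 0.96), a cartilage and tendon matrix gene, and the gene most like Lum was Col3a1 (0.95), the chain of type III collagen. Bgn was most like Col6a1 (0.93), a chain of type VI collagen, Aspn most like Serpinf1 (0.91), Kera most like Cpxm2 (0.91), and Dcn most like S100a4 (0.89). Ogn was most like Lpar1 (0.89) and Prelp most like Fndc1 (0.86). The 12 sums share pools and differ in depth, so these values describe likeness only.

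Over all kept wells, the 8 genes together stood at 159.8 per 10000 at 2 days, 160.3 at 6 weeks and 113.7 at 13 weeks. Within fibrous wells, Dcn at 13 weeks (78.9, 71.4 to 87.0) lay below Dcn at 2 days (99.6, 93.3 to 106) beyond counting error, and so did Fmod (43.4, 37.9 to 49.5, against 59.8, 55.0 to 65.0). Lum in fibrous wells was also lower at 13 weeks (2.53, 1.35 to 4.33) than at 2 days (7.31, 5.67 to 9.26). The 5 fibroblast markers outside the grouping genes were lower in these wells too, at 27.9 against 98.6 per 10000, and their part was not tested. Ogn was higher at 13 weeks (18.5, 15.0 to 22.6) than at 2 days (12.8, 10.6 to 15.3), with intervals that overlapped, and Kera, Aspn, Bgn and Prelp had overlapping intervals too. Prelp in fibrous wells was highest at 6 weeks (26.4, 22.5 to 30.7). The weight of each well mattered, since the 13-week total of the family was 128 per 10000 with equal weight per well. With 1 pool per time point these differences have no replicate check.

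Other genes of the same matrix were taken from lists. Of 10 further leucine-rich proteoglycan genes, 2 passed the filter on low counts, Chad (chondroadherin) and Ecm2. Both passed it through fibrous wells, with 221 UMIs against 23 for Chad and 88 against 11 for Ecm2, so their log2 ratios of 2.43 ± 0.37 and 2.02 ± 0.49 (SE) are descriptions. Ecm2, like Aspn and Ogn, lies within Cenpp. Omd (osteomodulin) gave 36 UMIs in all and was not tested. Of 31 genes that build glycosaminoglycan chains, 27 had a UMI but 1, Ugdh, passed the filter. Ugdh, which makes UDP-glucuronic acid, passed it only through fibroblast-gene wells, and its log2 ratio of -0.90 ± 0.56 (SE) is a description.

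Of the 14 collagen genes listed, 10 passed the filter between fibrous and fibroblast-gene wells, 6 of them in every sum of both groups. Of these 6, edgeR called 2 higher and 1 lower, where 8.89% of all genes tested were higher and 3.28% lower. The type I chains Col1a1 (log2 ratio 1.51 ± 0.30, SE; edgeR adjusted p = 1.1e-05) and Col1a2 (1.47 ± 0.33, 0.00013) were higher in fibrous wells. Col11a1 (3.74 ± 0.48) and Col12a1 (2.13 ± 0.34), chains of a minor fibrillar and of a fibril-associated collagen, passed the filter through fibrous wells, and their log2 ratios are descriptions. Col3a1 was lower (-0.88 ± 0.29, edgeR adjusted p = 0.021), with 53.0 per 10000 in fibrous and 83.8 in fibroblast-gene wells, and it was also the gene whose levels most resembled those of Lum. Of 13 large or other proteoglycans 3 were tested, and Prg4 (lubricin) was higher in fibrous wells (1.75 ± 0.30). Of 23 binding partners, receptors and proteases 8 were tested. Pcolce, which aids procollagen cleavage, was higher (0.87 ± 0.29, edgeR adjusted p = 0.025), whereas its relative Pcolce2 (-1.57 ± 0.40) and the protease Adamts5 (-2.17 ± 0.72) passed the filter only through fibroblast-gene wells and are given as descriptions. In wells with an Rgs5 UMI 11 collagen genes passed the filter, 4 of them in every sum of both groups. Those 4, Col1a1, Col1a2, Col3a1 and Col12a1, were lower by edgeR, where 10.9% of all genes tested were lower and 11.9% higher.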

How the data were processed

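αSMA-labeled (Tomato+) cells were profiled in 3 pools of 2 to 3 mice on 2 plates. The authors aligned reads to mm10 with STAR 2.5.4a and made the tables with Drop-seq tools. For each plate the authors deposited 2 unnormalized and unfiltered tables of counts by gene and well, of UMIs and of reads. UMIs were used throughout, with reads as an alternative. The 168 wells of the 6-week plate assigned to no pool were not used. A gene listed on 1 plate was counted as 0 on the other.

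Wells with at least 200 genes were kept. UMIs were summed per pool and well group and compared with edgeR 4.0.16 (quasi-likelihood test, TMM, filterByExpr with a minimum count of 10, pool as block, 2 residual degrees of freedom, spread shared across genes), with Benjamini-Hochberg adjustment and a threshold of 0.05. Thbs4, Tnmd, Rgs5, Gsn, Ly6a and Pdgfra were taken out before each fit. A gene whose sums passed the filter through 1 group only, as Kera did in 3 comparisons, is given without a p. DESeq2 1.42.0 and limma-voom (limma 3.58.1) were alternatives. Shares were taken after thinning wells to 300 UMIs (seed 0), without shallower wells. Likeness is the Pearson correlation of log2(level + 0.5). Intervals are at 95%, and the limit for a count of 0 is 3 counts. The scripts were tested on simulated data. Fitted log2 ratios include the TMM factor and differ from ratios of pooled levels.

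The genes named are the 8 members, the grouping genes, the genes most like each member among those with at least 100 UMIs, and genes of lists of matrix genes and cell type markers, mostly those with the most UMIs or those called. The members and lists were chosen with earlier results of these data known. The pool is the block in each fit because each pool gives both well groups.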

Additional observations from a re-analysis of the deposited data

Results flagged for a closer look

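Lum and Bgn differed in direction between pools, and these differences between pools were not tested. In wells with a Thbs4 or Tnmd UMI against wells without, the log2 ratio of pooled Lum levels was 0.39 in the 2-day pool, -0.997 in the 6-week pool and -0.15 in the 13-week pool. In fibrous against fibroblast-gene wells it was 0.19, -1.44 and -1.18 in the same order. For Bgn in fibrous against fibroblast-gene wells the log2 ratio was 0.61, -0.011 and 0.86 in that order. The 6-week pool was on a plate of its own.

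The 97 wells under 200 genes, left out of all comparisons, also held the members. Among their 16690 UMIs the 8 genes stood at 119 per 10000, with Dcn at 55.1, Fmod at 28.2, Prelp at 8.99, Ogn at 7.19, Bgn at 6.59, Lum at 6.59, Aspn at 4.19 and Kera at 2.40 per 10000.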

How the results depend on the processing

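Each pool holds both well groups and was the block. With no replicate block, genes higher and lower were 39 and 11 for Thbs4 or Tnmd wells (61 and 19 with it) and 36 and 9 for fibrous against fibroblast-gene wells (57 and 21), and Dcn (adjusted p = 0.069) and Bgn (0.19) were not called in the first. No further paired analysis was possible because the labels carry no replicate numbers.

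The number of genes tested differed between settings. For Thbs4 or Tnmd wells, genes higher and lower were 37 and 8 with DESeq2, 14 and 2 with read counts (5554 tested), 29 and 6 at 300 UMIs per well (322 tested), 102 and 47 with at least 2 marker UMIs (864 tested), and 96 and 48 with Tnmd alone (1204 tested). At 300 UMIs 9.01% of genes tested were higher, beside 5.4% of 1129 in the main fit. Genes lower were 50 without a filter and 39 with Thbs4 alone. Leaving out a pool gave 32 to 85 higher (2.43% to 8.24% of genes tested), 10 to 34 lower and 3 to 7 members higher, or 2 to 6 without Kera, whose calls are no test. The log2 ratio of Lum ran from -0.52 to 0.30 over the pools left out, turned to 0.30 without the 6-week pool and to 0.12 at 300 UMIs, and was not called in any alternative. For Rgs5 wells (110 higher, 100 lower, 921 tested), the counts were 47 and 52 with DESeq2, 71 and 208 without a filter (16144 tested), 34 and 31 at 300 UMIs (267 tested), and 41 higher with read counts (5120 tested). The added comparison with fibroblast-gene wells gave 47 higher and 42 lower, with 4 members lower, of which only Dcn passed the filter in both groups. For fibrous against fibroblast-gene wells (641 tested in the main fit), the counts were 31 and 5 with DESeq2, 11 and 0 with read counts (4165 tested), and 22 and 5 at 300 UMIs (185 tested). Genes lower were 34 with limma-voom, 11 without a filter and 12 with at least 300 genes per well, and genes higher were 30 with Pdgfra alone. Read counts left 2 members higher, or 1 without Kera (0.264% of genes tested). Leaving out a pool gave 23 to 55 genes higher (2.82% to 9.52%), 6 to 19 lower and 2 to 5 members higher, or 1 to 4 without Kera. Without satellite and muscle wells, of the 7 members other than Kera, 6 were higher in Thbs4 or Tnmd wells (7.16% of all genes tested), 6 lower in Rgs5 wells (12.6%) and 3 higher in fibrous wells (7.94%).

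The level of the 8 genes was 175 and 186 per 10000 at 2 days and 6 weeks with read counts, and 152, 151 and 131 at 2 days, 6 weeks and 13 weeks at 300 UMIs per well. It was 148 and 121 at 6 and 13 weeks without the deepest 5% of wells, and 128 at 13 weeks with equal weight per well. Without thinning, 4.39 and 3.37 members were detected per fibrous and fibroblast-gene well. The cause of these changes was not tested. The median gene moved by -0.53 (no filter) and -0.24 (read counts) on the log2 scale for Rgs5 wells and by 0.22 (no filter) for fibrous against fibroblast-gene wells. Depth, at a median of 727 UMIs per well, and 1 pool per time point limit all values.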
